A study of Mus musculus with 311 samples.

Results

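Conjugating enzymes couple foreign chemicals, hormones, bile acids and breakdown products to a polar group so that they can leave the liver in bile or urine. The genes described here are the glutathione transferases (Gst), the UDP-glucuronosyltransferases (Ugt) and the sulfotransferases (Sult), taken as every gene whose symbol starts with Gsta, Gstm, Gstp, Gstt, Gstk, Gsto, Gstz, Mgst, Ugt1, Ugt2, Ugt3 or Sult, apart from Gsta2 and Sult2a2. Of 44 probes with such names 5 belonged to these excepted genes, and the other 39 named 32 genes. A gene was kept when a probe was measured on at least 95% of the arrays, which left out Gsta3, Gsta4 and Mgst1. The 29 genes kept, of 11387 in all, were 12 Gst, 5 Ugt and 12 Sult genes, each read from its probe with the fewest missing values, called the read probe where a gene has others.

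Liver total RNA came from 311 F2 mice of an intercross between C57BL/6J and C3H/HeJ, with both parental strains on an ApoE null background, so that all animals lacked apolipoprotein E. Females and males were used, and all ate a high-fat Western diet from week 8 to week 24 of age. Each array carried 1 animal's RNA in Cy3 and a pool of equal portions of all samples in Cy5, with no dye swap. A value is the log10 ratio of the animal to the pool, so 0 is the level of the pool and a step of 0.3 is close to a doubling; levels of different genes cannot be compared.

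The labels give neither sex nor genotype of an animal, and all arrays form 1 group. The arrays were split at -0.5 on the ratio of Eif2s3y, a gene of the Y chromosome, and every spread, shape and correlation was taken within the Eif2s3y-high or within the Eif2s3y-low arrays. The 155 Eif2s3y-high arrays ran from -0.219 to 0.527 on that probe and the 156 Eif2s3y-low arrays from -1.76 to -0.875. Kdm5d, another Y-linked gene, put 310 of the 311 arrays on the same side. Since these sets come from a measured transcript, differences of level between them are described and not tested. No value of the 29 genes lay at the limits of the deposited scale. In 10 arrays, 4 Eif2s3y-high and 6 Eif2s3y-low, a marker of pancreas or skeletal muscle stood at 10 times the pool or more.

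Glutathione transferases attach glutathione to electrophiles, UDP-glucuronosyltransferases attach glucuronic acid, and sulfotransferases attach sulfate from the donor PAPS. In liver several of these genes are induced through receptors and sensors: Nrf2 through antioxidant response elements, CAR and PXR, which also drive Cyp2b10 and Cyp3a11, and the dioxin receptor AhR, which drives Cyp1a1. In mouse liver a number of sulfotransferases are known to differ between the sexes under the rhythm of growth hormone, which signals through STAT5.

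Promoters of 26 of the 29 genes were found in the RefSeq table of GRCm38.p6, 33 windows in all, each from 250 bases before to 50 bases after a transcription start. Gstt2, Sult2a1 and Sult4a1 had no entry. Gstm1 and Gstm2 are neighbours in the mu-class cluster, and their transcripts rose and fell together in these livers. A window of each is shown, with every run of 8 or more bases that occurs in both in capitals. Overlapping runs are joined, so a longer stretch in capitals need not occur whole in the other window. The Gstm1 window, the second of 2 found for this gene, lies at chr3:108017769-108018068 and the Gstm2 window at chr3:107986371-107986670, both on the minus strand.
Gstm1: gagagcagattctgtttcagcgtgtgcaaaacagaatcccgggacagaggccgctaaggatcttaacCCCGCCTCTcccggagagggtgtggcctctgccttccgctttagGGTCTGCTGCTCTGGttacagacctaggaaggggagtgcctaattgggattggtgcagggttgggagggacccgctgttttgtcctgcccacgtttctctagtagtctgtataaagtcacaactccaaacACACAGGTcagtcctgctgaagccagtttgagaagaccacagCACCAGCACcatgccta
Gstm2: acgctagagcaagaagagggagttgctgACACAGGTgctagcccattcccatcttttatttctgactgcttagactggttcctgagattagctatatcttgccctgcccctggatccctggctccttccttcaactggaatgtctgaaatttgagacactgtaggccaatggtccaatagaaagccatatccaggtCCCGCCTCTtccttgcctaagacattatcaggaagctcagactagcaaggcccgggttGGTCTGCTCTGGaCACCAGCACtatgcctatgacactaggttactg
The shared runs are short and make up 41 of the 300 bases in Gstm1 and 38 in Gstm2.

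The window of Gstm5 is shown because it was the only one of the 33 windows with a match to the antioxidant response element TGACNNNGC, in capitals, 42 bases before the start. It lies at chr3:107895604-107895903 on the plus strand. The window of Sult3a1, whose level differed strongly between the sets, lies at chr10:33857472-33857771 on the plus strand, with its match to the STAT5 motif TTCNNNGAA in capitals, 109 bases before the start.
Gstm5: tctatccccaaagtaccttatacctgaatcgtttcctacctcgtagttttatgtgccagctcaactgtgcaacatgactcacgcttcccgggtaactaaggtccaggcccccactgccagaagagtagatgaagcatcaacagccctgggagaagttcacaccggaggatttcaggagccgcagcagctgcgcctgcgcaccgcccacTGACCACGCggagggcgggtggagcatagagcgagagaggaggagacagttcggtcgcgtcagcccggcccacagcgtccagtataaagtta
Sult3a1: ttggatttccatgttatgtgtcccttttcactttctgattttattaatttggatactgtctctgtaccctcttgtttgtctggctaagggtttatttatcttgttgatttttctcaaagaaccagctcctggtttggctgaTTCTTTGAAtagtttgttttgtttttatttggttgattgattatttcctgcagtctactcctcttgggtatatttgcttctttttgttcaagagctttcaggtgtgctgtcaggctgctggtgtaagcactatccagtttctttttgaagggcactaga
Both strands were searched. TGACNNNGC occurred in 1 of the 33 windows of these genes (3.03%) and in 12.4% of all 32851 windows of this length. TTCNNNGAA occurred in 4 of the 33 (12.1%), those of Gstm6, Mgst2, Sult3a1 and Ugt1a6a, and in 8.30% of all windows. The AhR motif GCGTG occurred in 9 of the 33 (27.3%), of the 7 genes Gstm1, Gstm5, Gstp1, Gstp3, Sult1b1, Sult1d1 and Sult2b1, and in 32.4% of all windows. In Gstm5 the reverse strand match to GCGTG, 38 bases before the start, overlaps the capitals. A match describes letters only.

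The sulfotransferases had the largest spread of the 3 families and Sult1e1 the largest of the 29 genes. A gene was called variable when its SD within a set was at least 2 times the median SD of all genes in that set, which was 0.0651 in Eif2s3y-high and 0.0621 in Eif2s3y-low livers. As a multiple of that, the median gene stood at 1.59 in Eif2s3y-high and 1.64 in Eif2s3y-low livers for Gst, at 1.38 in both for Ugt, and at 1.73 and 1.92 for Sult. Variable genes numbered 9 of 29 in the Eif2s3y-high livers, against 10.6% of all genes, and 8 of 29 in the Eif2s3y-low livers, against 9.74% of all genes. By family, 3 Gst, 1 Ugt and 5 Sult genes were variable among Eif2s3y-high livers, and 3 Gst, no Ugt and 5 Sult genes among Eif2s3y-low livers.

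**Figure D1:**
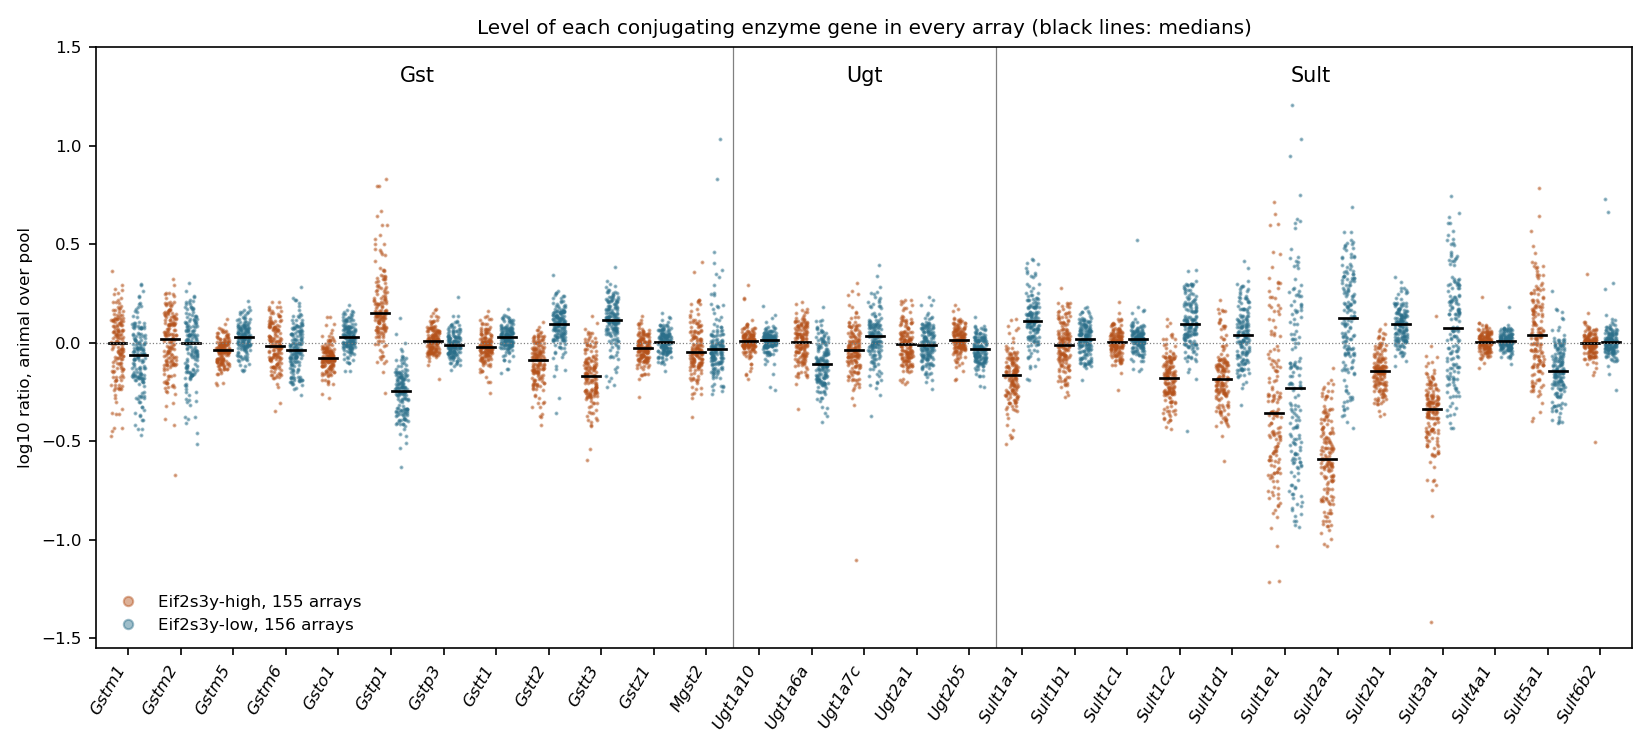
Log10 ratio of every array (points) for the 29 genes, with Eif2s3y-high arrays left of Eif2s3y-low arrays for each gene and medians as black lines. Sult1e1 spreads widest in both sets, and the medians of Gstp1, Sult2a1 and Sult3a1 lie at least 2-fold apart.

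Sult1e1, the oestrogen sulfotransferase, had its lowest value at -1.22, its median at -0.358 and its highest at 0.716 in Eif2s3y-high livers, against -0.934, -0.231 and 1.21 in Eif2s3y-low livers. The sets overlapped over nearly the whole range. The SD was 5.75 ± 0.330 times the median SD in Eif2s3y-high and 6.98 ± 0.409 times in Eif2s3y-low livers (jackknife SE, n = 155 and 156). The middle 90% of the values spanned 13.8-fold in Eif2s3y-high and 21.5-fold in Eif2s3y-low livers.

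Sult2a1, the hydroxysteroid and bile acid sulfotransferase, ran from -1.03 over a median of -0.590 to -0.128 in Eif2s3y-high livers. In Eif2s3y-low livers it ran from -0.436 over 0.126 to 0.689. No Eif2s3y-high liver reached the Eif2s3y-low median, and 117 of 155 lay below every Eif2s3y-low liver, while the ends of the ranges overlapped. Its SD was 3.10 ± 0.147 times the median SD in Eif2s3y-high and 3.90 ± 0.184 times in Eif2s3y-low livers.

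Sult3a1, an amine sulfotransferase, ran from -1.42 over -0.336 to 0.133 in Eif2s3y-high livers and from -0.434 over 0.0760 to 0.744 in Eif2s3y-low livers, with 72 Eif2s3y-low livers above every Eif2s3y-high one. Its spread was 2.61 ± 0.375 times the median SD in Eif2s3y-high and 4.15 ± 0.202 times in Eif2s3y-low livers. Without the single lowest Eif2s3y-high array the first of these became 2.27.

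Sult5a1, a sulfotransferase with no settled substrate, went the other way. Its values ran from -0.397 over 0.0363 to 0.785 in Eif2s3y-high livers and from -0.409 over -0.142 to 0.261 in Eif2s3y-low livers, with 25 Eif2s3y-high livers above every Eif2s3y-low one. Its SD was 3.18 ± 0.199 times the median SD in the Eif2s3y-high livers and 2.05 ± 0.120 times in the Eif2s3y-low livers. Without the farthest array the multiple in the Eif2s3y-low livers was 1.99, under the threshold. Sult1d1, which sulfates catecholamines in the mouse, was the fifth variable sulfotransferase, at 2.24 ± 0.137 in Eif2s3y-high and 2.16 ± 0.115 in Eif2s3y-low livers.

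Among the transferases of glutathione the mu-class genes Gstm1 and Gstm2 were variable in both sets, while Gstm5, at 0.933 in Eif2s3y-high and 1.11 in Eif2s3y-low livers, and Gstm6, at 1.61 and 1.75, were not. Gstm1 ran from -0.473 over 0.00011 to 0.361 in Eif2s3y-high livers and from -0.470 over -0.0625 to 0.298 in Eif2s3y-low livers, with almost complete overlap. Its SD was 2.47 ± 0.146 and 2.52 ± 0.141 times the median SD in Eif2s3y-high and Eif2s3y-low livers. Gstm2 ran from -0.672 over 0.0202 to 0.325 in Eif2s3y-high livers, against -0.515, -0.00425 and 0.301 in Eif2s3y-low livers. Its multiples were 2.38 ± 0.181 in Eif2s3y-high and 2.48 ± 0.151 in Eif2s3y-low livers. Gstp1, a pi-class enzyme of mouse liver, ran from -0.256 over 0.153 to 0.828 in Eif2s3y-high livers. In Eif2s3y-low livers it ran from -0.632 over -0.246 to 0.123. Of the 150 Eif2s3y-high livers 93 lay above every Eif2s3y-low liver. It was variable at 2.81 ± 0.228 in Eif2s3y-high livers and stood at 1.85 ± 0.123 in Eif2s3y-low livers.

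Mgst2, a microsomal transferase that can also make leukotriene C4, ran from -0.376 over -0.0484 to 0.410 in Eif2s3y-high livers and from -0.262 over -0.0348 to 1.03 in Eif2s3y-low livers. Its SD was 1.84 ± 0.139 times the median SD in the Eif2s3y-high livers and 2.67 ± 0.450 times in the Eif2s3y-low livers. The last value fell to 1.95 when the arrays high in pancreas or muscle markers were left out, and to 1.57 with the median absolute deviation.

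The glucuronosyltransferases varied less. Ugt1a7c, a first-exon form of the Ugt1a locus, ran from -1.10 over -0.0388 to 0.305 in Eif2s3y-high livers and from -0.374 over 0.0316 to 0.394 in Eif2s3y-low livers. It counted as variable in Eif2s3y-high livers at 2.10 ± 0.472, and a single array set that: without it the multiple was 1.63. Ugt1a6a, which acts on planar phenols, ran from -0.337 over 0.0032 to 0.204 in Eif2s3y-high livers and from -0.405 over -0.110 to 0.178 in Eif2s3y-low livers. Its multiples were 1.38 ± 0.0879 in Eif2s3y-high and 1.73 ± 0.0959 in Eif2s3y-low livers, and those of Ugt2a1, an olfactory form in rodents, 1.41 ± 0.0776 in Eif2s3y-high and 1.38 ± 0.0785 in Eif2s3y-low livers.

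**Figure D2:**
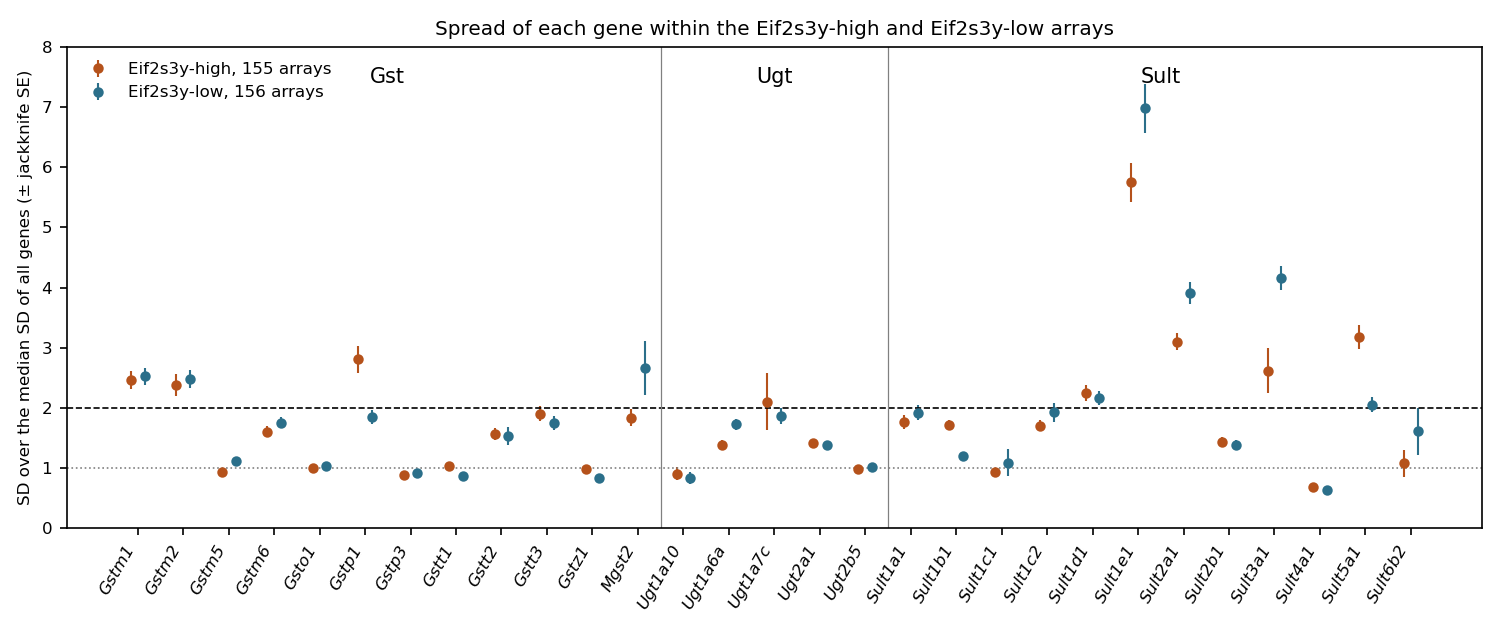
SD of each gene as a multiple of the median SD of all genes in the same set, with jackknife standard errors, Eif2s3y-high left of Eif2s3y-low. The dashed line marks the threshold of 2 and the dotted line the median gene. Sult1e1 stands at 5.75 in Eif2s3y-high and 6.98 in Eif2s3y-low livers.

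Some genes of each family were as steady as an ordinary transcript. Sult4a1, best known from brain, had multiples of 0.690 in Eif2s3y-high and 0.630 in Eif2s3y-low livers, the smallest of the 29. The least variable Ugt gene was Ugt1a10, at 0.904 and 0.826 in Eif2s3y-high and Eif2s3y-low livers. Gstp3, a second pi-class gene, stood at 0.875 in Eif2s3y-high and 0.911 in Eif2s3y-low livers. Gstz1, the maleylacetoacetate isomerase of tyrosine breakdown, had 0.978 in Eif2s3y-high and 0.839 in Eif2s3y-low livers. Gsto1, an omega-class thioltransferase, had 0.995 and 1.03, and Ugt2b5 0.975 and 1.01, each with Eif2s3y-high livers first. The remaining genes, Gstm5, Gstm6, Gstt1, Gstt2, Gstt3, Sult1a1, Sult1b1, Sult1c1, Sult1c2, Sult2b1 and Sult6b2, lay between 0.868 and 1.93.

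None of the 29 distributions was called a mixture in either set, against 0.764% of all genes in Eif2s3y-high and 0.826% in Eif2s3y-low livers. With shares this low, no call among 29 genes does not set them apart from other genes. A call needed a mixture of normals in the ratio 1:1, 3:1, 1:3 or 1:2:1 to beat a normal, a t and a skew normal distribution by a BIC of 10. The nearest were Sult2a1 on its read probe in Eif2s3y-high livers, for which 1:2:1 led by 3.60, and Sult1e1 in Eif2s3y-high livers, for which 3:1 led by 2.67. In simulated data 3-level mixtures such as 1:2:1 were recovered less often than 2-level ones. For Sult1e1 in Eif2s3y-low livers the margin of the mixture was -6.91.

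The medians of the sets differed most among the sulfotransferases, 11 of which were lower in Eif2s3y-high livers and 1 higher. Of these 11, 6 were lower by 1.5-fold or more, while Sult6b2 (-0.0038), Sult4a1 (-0.0054) and Sult1c1 (-0.0139) hardly differed. The median difference of the Sult genes was -0.177 on the log10 scale, against -0.00268 for all genes. Direction alone was not counted over all genes. Over all 29 genes 2 medians were lower in Eif2s3y-high than in Eif2s3y-low livers by 2-fold or more, where 0.316% of all genes were, and 1 was higher, where 0.422% were. Sult2a1 was 5.20-fold lower in Eif2s3y-high livers (-0.716 on the log10 scale) and Sult3a1 2.58-fold lower (-0.412). Gstp1 was 2.50-fold higher in Eif2s3y-high livers (0.398), and 149 of 150 Eif2s3y-high livers with a value lay above the Eif2s3y-low median. At 1.5-fold, 8 genes were lower in Eif2s3y-high livers, against 0.913% of all genes, and 2 higher, against 1.11%.

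The genes lower by 1.5-fold included the phenol sulfotransferase Sult1a1 (-0.277), Sult1c2 (-0.275), Sult1d1 (-0.227), and Sult2b1, which sulfates cholesterol (-0.237). From the theta class of glutathione transferases came Gstt3 (-0.284) and Gstt2 (-0.184). The other gene higher by 1.5-fold was Sult5a1 (0.178). The smallest differences were those of Sult6b2 (-0.0038), Sult4a1 (-0.0054) and Ugt2a1 (0.0058). Gstm1 differed by 0.0627 and Ugt2b5 by 0.0450, both higher in Eif2s3y-high livers.

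Second probes of the same gene changed the size of the difference for both leading sulfotransferases. The second Sult2a1 probe had medians of -1.38 in Eif2s3y-high and 0.196 in Eif2s3y-low livers, a 37.3-fold difference. The second Sult3a1 probe had -1.49 and 0.165, a 45.5-fold difference. Folds of these 2 genes are therefore given per probe, and the probes' sequences were not used here. The excepted Sult2a2, a near copy of Sult2a1, had a median of -1.54 in Eif2s3y-high and 0.180 in Eif2s3y-low livers on its read probe. Among the other genes with several probes, r between them was 0.84 in Eif2s3y-high and 0.77 in Eif2s3y-low livers for Gstm1, 0.88 and 0.87 for Gstm2, 0.41 and 0.82 for Sult3a1, and 0.13 and 0.12 for Ugt2a1, whose values thus depend on the probe. The second Ugt2a1 probe was not set against other genes, so every r of Ugt2a1 that follows rests on its read probe. The other probes of Ugt2b5 had r = 0.65 and 0.59 with the read one in Eif2s3y-high livers and 0.63 and 0.53 in Eif2s3y-low livers. Their median differences were 0.141 and 0.0676, both higher in Eif2s3y-high livers.

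The 2 Sult2a1 probes had r = 0.14 with each other in Eif2s3y-high and 0.95 in Eif2s3y-low livers. With Sult2a2 the read probe had r = 0.0389 in Eif2s3y-high and 0.945 in Eif2s3y-low livers. With the second Sult2a1 probe, Sult2a2 had r = 0.362 in Eif2s3y-high and 0.945 in Eif2s3y-low livers. The r values of Sult2a1 in the Eif2s3y-high livers that follow are therefore given with both probes. What the read probe binds in the Eif2s3y-high livers was not tested.

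**Figure D3:**
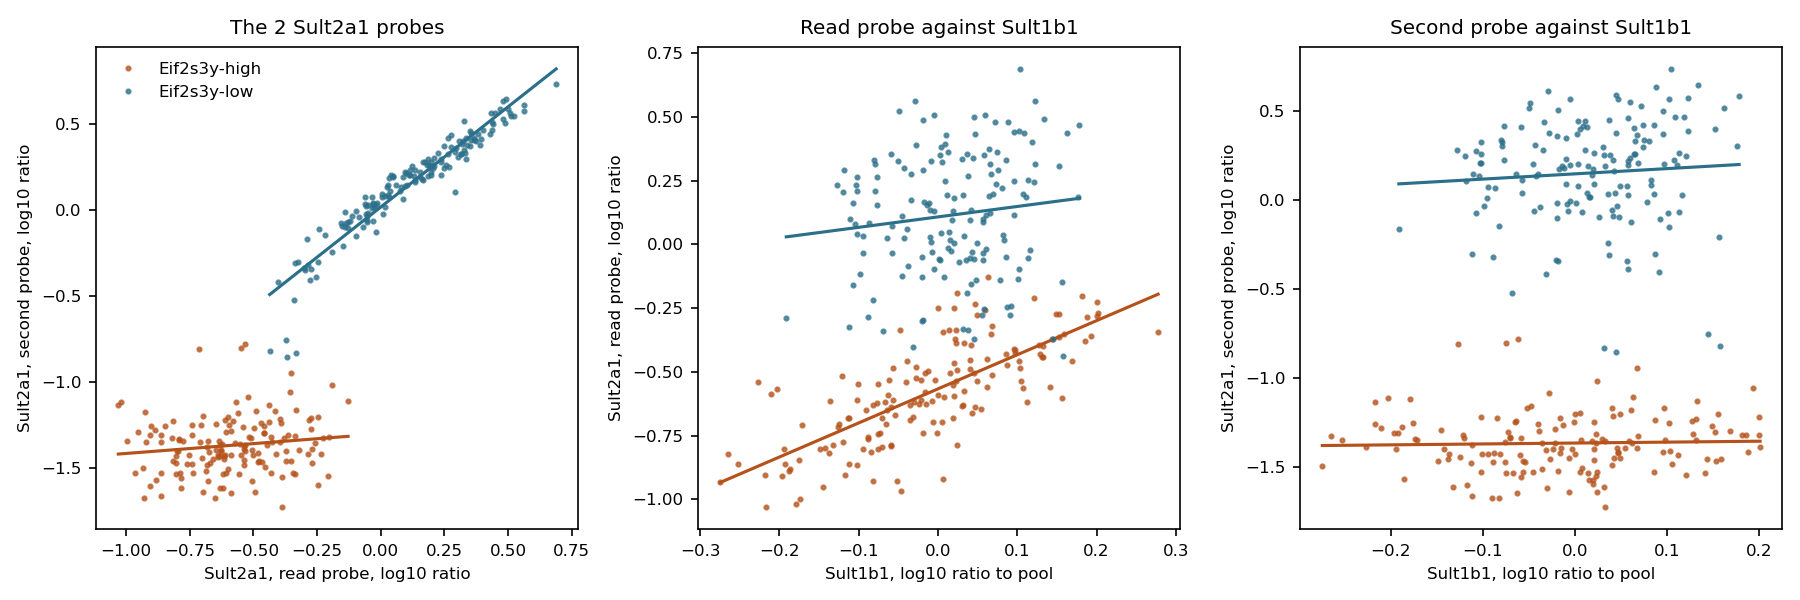
Left, the second against the read Sult2a1 probe, then the read probe and the second probe against Sult1b1, in log10 ratios with a least squares line per set. In the left panel r is 0.14 for Eif2s3y-high and 0.95 for Eif2s3y-low arrays. The Eif2s3y-high arrays follow Sult1b1 on the read probe (r = 0.739) and not on the second (r = 0.0338).

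Correlation was taken across livers within a set, and each pair was tested by limma's moderated regression of every gene on each gene of the pair, with Benjamini-Hochberg adjustment over all genes and the larger of both adjusted p-values kept. Of 406 pairs of the 29 genes 81 were called positive and 27 negative in Eif2s3y-high livers, and 96 positive and 28 negative in Eif2s3y-low livers. Over all genes regressed on the 29, 11.5% were positive and 10.9% negative in Eif2s3y-high livers, and 9.79% and 10.5% in Eif2s3y-low livers. In both sets 61 pairs were called, all 61 with the same sign. For every pair printed, the r, Spearman rho and 2-sided permutation p were computed, and 1e-05 is the smallest p that 100000 permutations can give.

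The mean r within a family was low but above that of all gene pairs, which was 0.00184 in Eif2s3y-high and 0.0016 in Eif2s3y-low livers. It was 0.0822 ± 0.0156 in Eif2s3y-high and 0.148 ± 0.0184 in Eif2s3y-low livers for the 66 Gst pairs. The 10 Ugt pairs had 0.135 ± 0.0398 in Eif2s3y-high and 0.176 ± 0.0443 in Eif2s3y-low livers. For the 66 Sult pairs it was 0.121 ± 0.0186 and 0.133 ± 0.0168 in Eif2s3y-high and Eif2s3y-low livers (jackknife SE over livers). Pairs of a Gst with a Sult gene averaged 0.0157 ± 0.0126 in Eif2s3y-high and 0.0215 ± 0.0173 in Eif2s3y-low livers. By subclass, the 6 mu-class pairs averaged 0.278 in Eif2s3y-high and 0.446 in Eif2s3y-low livers, and the 3 theta-class pairs 0.457 and 0.293.

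Called pairs inside the Gst family were 17 positive and 7 negative in Eif2s3y-high livers, and 26 positive and 4 negative in Eif2s3y-low livers. Called pairs inside the Sult family, 15 in Eif2s3y-high and 21 in Eif2s3y-low livers, were all positive, and so were the 2 and 4 within Ugt. Genes that lie on one chromosome share more of the segregating parental segments and, in gene clusters, more sequence. The 36 such pairs had a mean r of 0.248 in Eif2s3y-high and 0.220 in Eif2s3y-low livers, against 0.0466 and 0.0589 for the other 370 pairs. Many of these pairs are also of one gene class, such as the Gstm genes on chromosome 3 and the Gstt genes on chromosome 10. No genotypes were used, so shared segments and gene class cannot be told apart here, and neither was tested. Whether near copies share signal on these probes was not tested either.

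**Figure D4:**
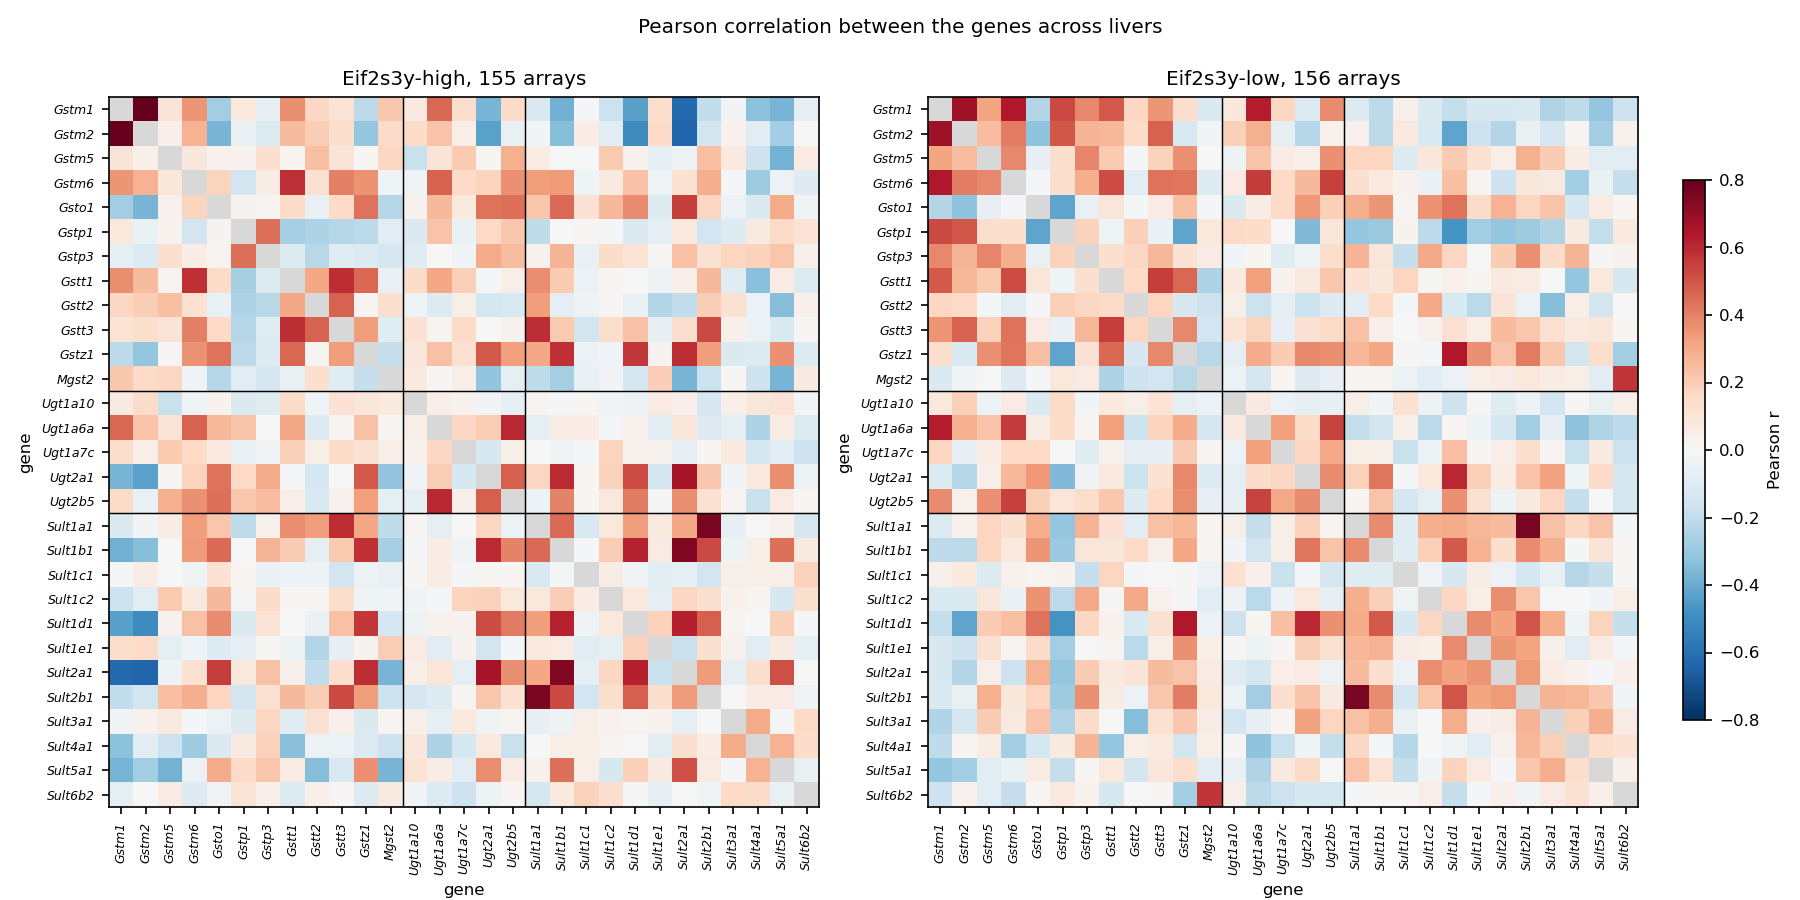
Pearson r for every pair of the 29 genes, Eif2s3y-high livers left and Eif2s3y-low livers right, on a colour scale from -0.8 to 0.8. Lines separate Gst, Ugt and Sult genes. Gstm1 with Gstm2 and Sult1a1 with Sult2b1 are strongly positive in both panels, while the rows of Sult2a1 differ between them.

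Among glutathione transferases the closest pair was Gstm1 with Gstm2, at r = 0.803 in Eif2s3y-high and 0.676 in Eif2s3y-low livers (rho 0.786 and 0.671, permutation p = 1e-05, limma adjusted p = 1.04e-32 and 3.04e-19). Without the 2 livers farthest from the Gstm1 median, r was 0.792 in Eif2s3y-high and 0.665 in Eif2s3y-low livers. Gstm1 with Gstm6, another gene of the cluster, had r = 0.352 in Eif2s3y-high and 0.641 in Eif2s3y-low livers (permutation p = 2e-05 and 1e-05). The theta genes Gstt1 and Gstt3 had r = 0.593 in Eif2s3y-high and 0.551 in Eif2s3y-low livers. Gstm6 with Gstt1 had 0.587 in Eif2s3y-high and 0.521 in Eif2s3y-low livers, all at permutation p = 1e-05. Leaving out the 2 farthest livers gave 0.594 and 0.559 for Gstt1 with Gstt3, and 0.563 and 0.513 for Gstm6 with Gstt1, Eif2s3y-high livers first in each pair.

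The lowest pair of the family in Eif2s3y-high livers was Gstm2 with Gsto1, at -0.369 there and -0.325 in Eif2s3y-low livers. Gsto1 with Gstp1 had 0.0271 in Eif2s3y-high livers (limma adjusted p = 0.896) and the lowest r of the family in Eif2s3y-low livers, -0.422 (adjusted p = 5.58e-06). The difference between the sets was not tested for this pair.

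Among the sulfotransferases Sult1a1 and Sult2b1 moved together in both sets, at r = 0.756 in Eif2s3y-high and 0.757 in Eif2s3y-low livers (rho 0.776 and 0.795, permutation p = 1e-05, limma adjusted p = 6.32e-26 and 3.18e-24). Sult1b1, which sulfates thyroid hormones, with Sult1d1 had 0.614 in Eif2s3y-high and 0.493 in Eif2s3y-low livers. Sult1d1 with Sult2b1 had 0.477 in Eif2s3y-high and 0.502 in Eif2s3y-low livers. On its read probe Sult2a1 had r = 0.739 with Sult1b1 in Eif2s3y-high livers (adjusted p = 3.79e-25 by limma) and 0.125 in Eif2s3y-low livers (adjusted p = 0.484). The slope of Sult1b1 on the read Sult2a1 probe was 0.408 in Eif2s3y-high and 0.0383 in Eif2s3y-low livers. The difference was 0.370 ± 0.0386 (limma interaction, adjusted p = 4.09e-17, a fit added after the values were seen). In that fit 14 of the other 28 genes had slopes on Sult2a1 that differed, where 19.5% of all genes were higher and 17.5% lower, with the read probe as the predictor. The second probe was not fitted in its place. On the second probe r with Sult1b1 was 0.0338 in Eif2s3y-high and 0.0734 in Eif2s3y-low livers, so this relation rests on 1 probe. The same holds for Sult2a1 with Sult1d1, at 0.622 on the read and 0.0065 on the second probe in Eif2s3y-high livers.

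The lowest Sult pairs were Sult1e1 with Sult2a1 in Eif2s3y-high livers, at -0.176 on the read probe (adjusted p = 0.304, limma) and 0.0878 on the second, where the read probe gave 0.354 in Eif2s3y-low livers (adjusted p = 0.00135), and Sult1c1 with Sult4a1, at 0.0476 in Eif2s3y-high and -0.226 in Eif2s3y-low livers (adjusted p = 0.881 and 0.0679, limma). For all its spread, Sult1e1 as the predictor was called with no other of the 29 genes in Eif2s3y-high livers by limma and with 7 in Eif2s3y-low livers. These calls use the regression on Sult1e1 alone, not the larger of both adjusted p-values. In Eif2s3y-high livers 104 of 11386 genes were called with Sult1e1, 54 positive (0.474%) and 50 negative (0.439%). In Eif2s3y-low livers 177 were positive (1.55%) and 193 negative (1.70%).

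Within the glucuronosyltransferases Ugt1a6a with Ugt2b5 led, at r = 0.606 in Eif2s3y-high and 0.543 in Eif2s3y-low livers (permutation p = 1e-05, limma adjusted p = 1.62e-14 and 2.12e-11). With the most variable Ugt2b5 probe r was 0.272 in Eif2s3y-high and 0.168 in Eif2s3y-low livers, where limma no longer called it (adjusted p = 0.0874). Ugt2a1 with Ugt2b5 followed with 0.481 in Eif2s3y-high and 0.380 in Eif2s3y-low livers, and with 0.328 and 0.319 on that probe. Ugt1a6a with Ugt1a7c, forms that share the last exons of 1 locus, had 0.167 in Eif2s3y-high livers (adjusted p = 0.174) and 0.330 in Eif2s3y-low livers (limma adjusted p = 0.000346). Ugt1a6a with Ugt2a1 had 0.194 in Eif2s3y-high and 0.147 in Eif2s3y-low livers, neither called by limma (adjusted p = 0.0554 and 0.154). The lowest pairs, Ugt1a7c with Ugt2a1 at -0.127 in Eif2s3y-high and Ugt1a10 with Ugt2a1 at -0.0702 in Eif2s3y-low livers, were not called.

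Pairs across families were chosen after their values were seen. Gstz1 with Sult1d1 had r = 0.567 in Eif2s3y-high and 0.643 in Eif2s3y-low livers, and Gstm1 with Ugt1a6a 0.456 and 0.629, where the second Gstm1 probe gave 0.254 in Eif2s3y-high and 0.330 in Eif2s3y-low livers. Sult1d1 with Ugt2a1 had 0.521 in Eif2s3y-high and 0.604 in Eif2s3y-low livers, on the read Ugt2a1 probe alone. Mu-class and sulfotransferase transcripts opposed each other in places: Gstm2 with Sult1d1 had -0.50 in Eif2s3y-high and -0.42 in Eif2s3y-low livers (permutation p = 1e-05 for all 4 pairs in both sets). With Sult1d1 the second Gstm2 probe gave weaker values, -0.298 in Eif2s3y-high and -0.157 in Eif2s3y-low livers. Gstp1 with Sult1d1 had -0.115 in Eif2s3y-high and -0.477 in Eif2s3y-low livers (limma adjusted p = 0.455 and 5.11e-08).

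Gstm1 and Gstm2 had r = -0.624 and -0.637 with the read Sult2a1 probe in Eif2s3y-high livers, where the second probe gave -0.179 and -0.127. In Eif2s3y-low livers the read probe gave -0.128 with Gstm1 and -0.237 with Gstm2. With the glucuronosyltransferase Ugt2a1 the read probe had r = 0.660 in Eif2s3y-high and 0.0684 in Eif2s3y-low livers, and the most variable probes of both genes had -0.0456 in the Eif2s3y-high livers.

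Mgst2 and Sult6b2 had r = 0.0689 in Eif2s3y-high and 0.572 in Eif2s3y-low livers (limma adjusted p = 0.739 and 2.19e-12). Their rho in Eif2s3y-low livers was -0.0337, and r fell to 0.104 once the arrays high in pancreas or muscle markers were dropped. The same 2 Eif2s3y-low arrays were highest for both genes, at 1.03 and 0.828 for Mgst2 and 0.728 and 0.661 for Sult6b2. In these arrays Prss1, a trypsinogen of pancreatic acini, stood at 1.26 and 0.944, and the gut genes Vil1 and Cdh17, chosen after values were seen, at 1.07 and 1.01 and at 1.07 and 1.12. The 6 measured acinar markers, as a sum of ratios, ranged from 0.172 over a median of 0.370 to 80.8 in Eif2s3y-high and from 0.177 over 0.367 to 74.5 in Eif2s3y-low livers. Tissue of other organs in these samples was not tested as a source.

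The genes with the highest mean r in their family were Gstt1 for Gst in Eif2s3y-high livers, Gstm1 for Gst in Eif2s3y-low livers, Sult1b1 and Sult2b1 for Sult in Eif2s3y-high and Eif2s3y-low livers, and Ugt2b5 for Ugt in both. Gstm1 in Eif2s3y-low livers was followed most closely by Ugdh (r = 0.730), which makes the UDP-glucuronic acid that Ugt enzymes use. Next came Aox2 (0.715), Ephx1 (0.713), the microsomal epoxide hydrolase, Aox1 (0.699) and Gapdh (0.699). Among 14 Nrf2 target genes 8 rose with Gstm1 there and none fell, where 18.1% of all genes rose and 21.2% fell by limma at an adjusted p of 0.05. Of 13 CAR and PXR targets 2 rose and 5 fell with it. Of 7 macrophage markers 4 rose and 1 fell with Gstm1, and their part in these counts was not tested.

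Sult1b1 in Eif2s3y-high livers was closest to Cyp2c54 (0.779), Rgn (0.778), Cyp2c50 (0.774), Gpld1 (0.750) and Cyp2c37 (0.735), 3 of them cytochrome P450 genes of the Cyp2c cluster. Of the Nrf2 targets 9 of 14 were negative with it, where 20.9% of all genes were, and of 13 CAR and PXR targets 6 were positive, where 22.7% were. Of 7 macrophage markers 4 were negative and 2 positive with Sult1b1, and of 3 hepatocyte markers 2 were positive, and their part was not tested. On its read probe Ugt2b5 had Cops3 (0.737), Akr1c12 (0.734), Sec23a (0.726), Nt5dc1 (0.724) and Rbbp9 (0.706) as its closest genes in Eif2s3y-high livers. In Eif2s3y-low livers they were Akr1c12 (0.747), Cops3 (0.746), Nxt2 (0.733), Tcea1 (0.717) and Sec23a (0.716). The other Ugt2b5 probes had lower r with the read one, 0.65 and 0.59 in Eif2s3y-high and 0.63 and 0.53 in Eif2s3y-low livers. Those probes were not used for these genes or for the Ugt2b5 counts that follow. Of 12 genes that supply the donors and precursors of conjugation 6 were positive with Ugt2b5 in each set, where 16.6% of all genes were in Eif2s3y-high and 18.1% in Eif2s3y-low livers. None was negative in Eif2s3y-high and 1 was in Eif2s3y-low livers. With Sult1b1 in Eif2s3y-high livers 6 were positive and 3 negative, where 22.7% and 20.9% of all genes were. With Gstm1 in Eif2s3y-low livers 5 were positive and 2 negative, where 18.1% and 21.2% were. Of 13 CAR and PXR targets 7 were positive with Ugt2b5 in Eif2s3y-high and 4 in Eif2s3y-low livers, and none was negative. Of the 7 macrophage markers 4 were negative with Ugt2b5 in Eif2s3y-high and 3 in Eif2s3y-low livers, and none was positive.

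Gstt1 in Eif2s3y-high livers was closest to Suox (0.609), the sulfite oxidase, then Tcn2 (0.563), Mmab (0.553), Pank1 (0.550) and Wdr5 (0.544). Of the Nrf2 targets 4 of 14 were positive and 2 negative with Gstt1, where 9.97% and 9.72% of all genes were. Of the 12 donor and precursor genes 4 were positive and 1 negative with Gstt1. With Sult2b1 in Eif2s3y-low livers 4 of them were positive and 1 negative, where 15.5% and 14.8% of all genes were. Sult2b1 in Eif2s3y-low livers was closest to Klk6 (0.560), Prps1 (0.547), Mocs2 (0.528), Akr1d1 (0.526), a reductase of bile acid synthesis, and Iqgap2 (0.523). Each of these 30 relations was past a limma adjusted p of 0.05, and they are descriptions of likeness over the livers of a set.

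The 29 genes were then set against Nqo1, the quinone reductase that is the classical target of Nrf2. In Eif2s3y-high livers 4 genes were positive with Nqo1, against 19.6% of all genes, and 8 were negative, against 22.4%. In Eif2s3y-low livers 5 were positive, against 11.1%, and 4 negative, against 11.5%. Positive genes in both sets were Gstm1, Gstm2 and Gstt2. Gstm1 had r = 0.706 with Nqo1 in Eif2s3y-high and 0.562 in Eif2s3y-low livers (permutation p = 1e-05, limma adjusted p = 1.02e-21 and 1.83e-11), and Gstm2 had 0.586 and 0.544. Gstt2 followed with 0.324 in Eif2s3y-high and 0.291 in Eif2s3y-low livers. The other positive gene in Eif2s3y-high livers was Mgst2 (0.375). With 5 principal components removed Mgst2 had 0.0407 in Eif2s3y-high and Gstt2 0.0484 in Eif2s3y-low livers, neither called by limma. Of the other Nrf2 targets 9 of 13 were positive with Nqo1 in Eif2s3y-high and 7 of 13 in Eif2s3y-low livers, none negative. Of 5 AhR targets 3 were positive and 1 negative with Nqo1 in Eif2s3y-high livers, and 3 and 0 in Eif2s3y-low livers. Of 13 CAR and PXR targets 2 were positive and 4 negative in Eif2s3y-high livers, and 2 and 2 in Eif2s3y-low livers. Gclc, which starts glutathione synthesis, had 0.354 in Eif2s3y-high and 0.307 in Eif2s3y-low livers, and Ugdh 0.552 and 0.566.

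Markers of some cell types moved with Nqo1 as well. In Eif2s3y-high livers 19.6% of all genes were positive and 22.4% negative with Nqo1, and in Eif2s3y-low livers 11.1% and 11.5%. Of 7 macrophage markers 5 were positive and 1 negative in Eif2s3y-high livers and 4 positive in Eif2s3y-low livers, and of 3 measured hepatocyte markers 3 and 1 were negative. Of the 6 measured acinar markers of the pancreas 4 were negative with Nqo1 in Eif2s3y-high and 4 in Eif2s3y-low livers, and none was positive. None of 5 skeletal muscle markers was called in either set. Of 3 T cell markers 1 was positive in Eif2s3y-high livers and none was called in Eif2s3y-low livers. The same held for 2 cholangiocyte markers. Of 2 red cell markers 1 was negative in Eif2s3y-high and 1 positive in Eif2s3y-low livers. The mean ratio over the macrophage markers ranged from 0.551 over a median of 0.778 to 2.68 in Eif2s3y-high and from 0.603 over 1.10 to 3.19 in Eif2s3y-low livers. For the hepatocyte markers it ranged from 0.621 over 0.912 to 1.36 in Eif2s3y-high and from 0.678 over 0.994 to 3.88 in Eif2s3y-low livers. Their part in these correlations was not tested, and in whole liver fewer cells of a type and less RNA per cell cannot be told apart.

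Among the 29 genes, those negative with Nqo1 in both sets were Gsto1, at -0.352 in Eif2s3y-high and -0.362 in Eif2s3y-low livers, Sult1d1, at -0.308 and -0.397, and Ugt2a1, at -0.483 and -0.332. Sult5a1 had -0.543 in Eif2s3y-high livers (limma adjusted p = 6.27e-12) and -0.197 in Eif2s3y-low livers (adjusted p = 0.0559). Sult1b1 had -0.462 in Eif2s3y-high and -0.109 in Eif2s3y-low livers. Sult2a1 on its read probe had -0.700 in Eif2s3y-high livers, where the second probe gave -0.0594, and -0.00125 in Eif2s3y-low livers. With 5 principal components removed, r with Nqo1 in Eif2s3y-high livers turned to 0.0777 for Gsto1, 0.249 for Sult1d1 and 0.168 for Sult1b1. It was then -0.0894 for Sult5a1 and -0.168 for the read Sult2a1 probe, and none of these 5 was called by limma. In Eif2s3y-low livers Gsto1, at -0.162, and Sult1d1, at -0.117, were then not called either.

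**Figure D5:**
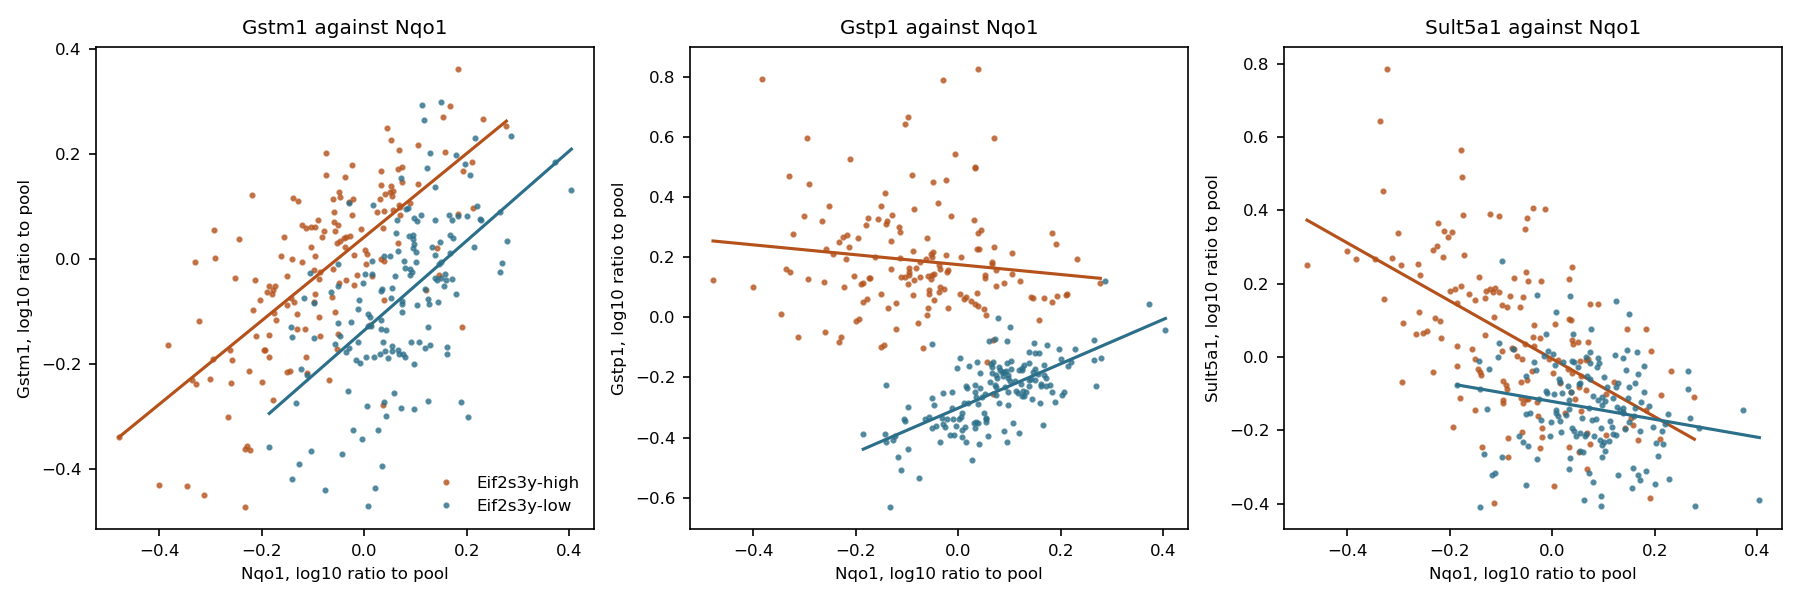
Log10 ratios of Gstm1, Gstp1 and Sult5a1 against Nqo1, with a least squares line for each set. Gstm1 rises with Nqo1 in both sets, Gstp1 has r = -0.128 in Eif2s3y-high and 0.659 in Eif2s3y-low livers, and Sult5a1 falls more steeply in Eif2s3y-high livers.

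The slope on Nqo1 differed between the sets for 6 of the 29 genes by limma's interaction term: 1 was higher and 5 were lower in Eif2s3y-high livers, where 1.16% and 2.84% of all genes were. Gstp1 changed most clearly, with a slope of -0.165 in Eif2s3y-high and 0.739 in Eif2s3y-low livers, a difference of -0.903 ± 0.139 (limma adjusted p = 4.25e-07). Its r with Nqo1 was -0.128 in Eif2s3y-high and 0.659 in Eif2s3y-low livers. Sult5a1 differed by -0.547 ± 0.146 (limma adjusted p = 0.0105) and Sult1b1 by -0.283 ± 0.0840 (limma adjusted p = 0.0283). Gstp3 differed by -0.185 ± 0.0538 (adjusted p = 0.0238 by limma). Sult3a1, with slopes of 0.122 in Eif2s3y-high and -0.577 in Eif2s3y-low livers, differed by 0.699 ± 0.206 (adjusted p = 0.0269 by limma), and with the most variable probe by 1.59. Its r with Nqo1 in Eif2s3y-low livers was -0.230, and 0.0164 with 5 principal components removed.

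Sult2a1 differed by -0.989 ± 0.192 on the read probe (limma adjusted p = 0.000102) and by -0.278 on the other (adjusted p = 0.607). With animals of F2 numbers up to the median alone 2 genes passed and with those above it none, while all 6 differences kept their sign at F2 numbers up to and above the median alike.

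With Cyp2b10, the classical target of CAR, 9 genes were positive and 2 negative in Eif2s3y-high livers, where 17.5% and 14.0% of all genes were. In Eif2s3y-low livers 4 were positive and 5 negative, where 18.1% and 14.2% were. Of 12 other CAR and PXR targets 6 were positive and 1 negative with Cyp2b10 in Eif2s3y-high livers. In Eif2s3y-low livers only 2 of these targets were positive and 1 negative. The highest were Gstp3 in Eif2s3y-high livers, at 0.437 (limma adjusted p = 8.48e-07) with 0.127 in Eif2s3y-low livers, and Sult4a1, at 0.351 in Eif2s3y-high and 0.512 in Eif2s3y-low livers (limma adjusted p = 0.000157 and 2.64e-09). Both genes varied less than the median gene. Their SD multiples were 0.875 in Eif2s3y-high and 0.911 in Eif2s3y-low livers for Gstp3, and 0.690 and 0.630 for Sult4a1. The spread of Cyp2b10 itself is not given here. Gstm1 was negative in both sets on its read probe, at -0.245 in Eif2s3y-high and -0.308 in Eif2s3y-low livers. Its second probe gave -0.121 and -0.0333 with no call (limma adjusted p = 0.247 and 0.784), so this relation rests on 1 probe. Ugt1a6a had -0.125 in Eif2s3y-high and -0.360 in Eif2s3y-low livers. Slopes on Cyp2b10 passed the limma interaction test for none of the 29 genes, with 9 at an unadjusted p under 0.05, while 0.58% of all genes were higher and 0.369% lower.

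Cyp3a11, the classical target of PXR, was positive with 5 genes and negative with 2 in Eif2s3y-high livers, where 11.3% and 12.7% of all genes were, and with 12 and 0 in Eif2s3y-low livers, where 15.0% and 16.5% were. The positive genes in Eif2s3y-high livers were Gstm1 (0.468), Ugt1a6a (0.452), Ugt2b5 (0.408), Gstm2 (0.289) and Gstm6 (0.267). In Eif2s3y-low livers they were Ugt2b5 (0.531), Sult2a1 (0.435), Ugt1a6a (0.374), Gstm1 (0.353), Gstm6 (0.308), Ugt1a7c (0.291), Sult1c2 (0.275), Gstm5 (0.258), Gstp3 (0.249), Sult1d1 (0.230), Gstz1 (0.220) and Ugt2a1 (0.215). For Gstm1 in Eif2s3y-low livers the second probe gave 0.0934 (limma adjusted p = 0.402), and removal of 5 principal components gave -0.00796, so neither the call nor its direction held. The most variable Ugt2b5 probe gave 0.241 in Eif2s3y-high and 0.348 in Eif2s3y-low livers. Of the 5 Ugt genes 2 were positive in Eif2s3y-high and 4 in Eif2s3y-low livers, all but Ugt1a10 in Eif2s3y-low livers. Of 12 other CAR and PXR targets 5 were positive and 1 negative with Cyp3a11 in Eif2s3y-high livers, and 4 and 0 in Eif2s3y-low livers. Of 14 Nrf2 targets 8 were positive and 0 negative with it in Eif2s3y-high livers, and 6 and 1 in Eif2s3y-low livers.

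The slope of Sult2a1 on Cyp3a11 was -0.127 in Eif2s3y-high and 0.662 in Eif2s3y-low livers, a difference of -0.789 ± 0.138 (limma adjusted p = 0.000289, where 0.246% of all genes were higher and 0.483% lower). The most variable probe gave -0.91 (adjusted p = 1.58e-05 by limma). With Cyp1a1, the target of AhR, no gene passed in Eif2s3y-high livers by limma, where 0.0439% of all genes were positive and 0.00878% negative, and 3 had an unadjusted p under 0.05; on ranks 1 passed. In Eif2s3y-low livers Sult1c2 alone was called, at -0.315 (adjusted p = 0.0308, where 0.132% of all genes were negative), and none on ranks. Of 4 other AhR targets none was called with Cyp1a1 in Eif2s3y-high livers, and 1 was positive in Eif2s3y-low livers. How well Nqo1, Cyp2b10, Cyp3a11 and Cyp1a1 follow Nrf2, CAR, PXR and AhR in these livers was not tested. Slopes on Cyp1a1 passed for none of the 29 genes by limma, with 3 at an unadjusted p under 0.05, while 0.0176% of all genes were higher and 0.00878% lower.

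The excepted Gsta2, an alpha-class transferase, had r = 0.691 with Gstm1 in Eif2s3y-high and 0.676 in Eif2s3y-low livers.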

How the data were processed

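Liver total RNA of 311 F2 mice was measured on 2-colour arrays, 1 array per animal, each against a common pool. The deposited values are log10 ratios, normalized by the authors with a method not given in the sources used here, and limited to -2 and 2. Log base and direction come from the values, since gene means on variances had a slope of -1.15, as a log10 ratio of sample over pool requires (-1.15). Dyes are given per array in the labels, so the direction was kept although 129 of 48205 array pairs had r under -0.3. Array medians lay between -0.0218 and 0.0172. The number of arrays limits the precision. Replicates are animals.

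Of 23388 probes 13645 named 1 gene, 48 several and 9695 none in the platform's annotation, and symbols were updated through RefSeq (GRCm38.p6, names only). An Entrez ID matched 12653 of the named probes, an accession 4, a current symbol 214 and a former symbol 93, and 681 stayed as the platform names them.

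Regressions of every gene on 1 gene within a set, and the interaction of slope and set, were fitted with limma 3.58.1 in R 4.3.3, adjusted over all genes at 0.05. Shapes, jackknife errors and 2-sided permutation tests (100000 permutations) used Python 3.11.15, numpy 2.4.6 and scipy 1.17.1. Methods were tested on simulated data, where 3-level mixtures were recovered less often than 2-level ones.

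The members, lists and seed genes were chosen with earlier results of these data known. Named in full were, by family and set, the 3 largest SDs, the smallest SD, the 3 highest and the lowest pairs, every mixture, every 2-fold median difference, and the 5 closest other genes of each family's lead. All members are named once or more. The F2 number was read from the title, from which the source name of 1 animal departs. Alternatives were centred arrays, both sets of F2 numbers split at the median of 186, leaving out 10 arrays of largest SD or those high in pancreas or muscle markers, the most variable probe, probes on every array, a split on Kdm5d, removal of 5 principal components, ranks and other thresholds.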

Additional observations from a re-analysis of the deposited data

Results flagged for a closer look

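The difference of slope between the sets, Eif2s3y-high minus Eif2s3y-low, on the receptor target genes Nqo1, Cyp2b10, Cyp3a11 and Cyp1a1 passed limma's interaction test at an adjusted p of 0.05 in 7 cases. On Nqo1 it was -0.989 for Sult2a1, -0.903 for Gstp1, -0.547 for Sult5a1, -0.283 for Sult1b1, -0.185 for Gstp3 and 0.699 for Sult3a1. On Cyp3a11 it was -0.789 for Sult2a1. Slopes are in log10 units of the gene per log10 unit of Nqo1 or Cyp3a11. The Sult2a1 difference on Nqo1 was -0.278 with the most variable probe and no longer passed (adjusted p = 0.607). Sult3a1 on Nqo1 and Sult2a1 on Cyp3a11, the other cases with more than 1 probe, passed with that probe too.

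On the read Sult2a1 probe as predictor, 14 slopes differed in a fit added after the values were seen. The difference was 0.370 for Sult1b1, 0.535 for Sult5a1, 0.272 for Sult1d1, 0.276 for Ugt2a1, 0.129 for Ugt2b5, 0.138 for Gstz1, 0.106 for Gsto1, 0.223 for Gstp1 and 0.135 for Gstm6. It was -0.960 for Sult1e1, -0.414 for Gstm1, -0.338 for Gstm2, -0.268 for Mgst2 and -0.139 for Gstt2. The second Sult2a1 probe, which had r = 0.14 with the read one in Eif2s3y-high livers, was not fitted as predictor.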

How the results depend on the processing

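No paired analysis was possible because all animals form 1 group and share no replicate numbers. Of the counts and family means 193 of 222 alternative values stayed within 1.5 times the reported count or within the 95% jackknife interval of the mean. At a threshold of 3 the variable genes were 3 in Eif2s3y-high and 3 in Eif2s3y-low livers. At 1.5-fold 2 medians were higher and 8 lower in Eif2s3y-high livers, and with probes on every array, which drop Gstp1, 0 were higher by 2-fold. With those 20 genes the mean r of Gst was 0.184 in Eif2s3y-high and 0.291 in Eif2s3y-low livers. After 5 principal components were removed it was 0.134 and 0.0740, that of Sult 0.0642 in Eif2s3y-high, and that of Ugt 0.0702 in Eif2s3y-low livers.

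At an adjusted p of 0.01 Cyp2b10 had 6 called genes in Eif2s3y-high and 5 in Eif2s3y-low livers, and Cyp1a1 had 0 in Eif2s3y-low livers. On ranks Cyp1a1 had 1 in Eif2s3y-high and 0 in Eif2s3y-low livers. With F2 numbers up to the median, fewer livers, Cyp3a11 had 1 in Eif2s3y-high and Cyp2b10 3 in Eif2s3y-low livers, and slopes differing between sets numbered 2 on Nqo1, 1 on Cyp2b10 and 0 on Cyp3a11. With F2 numbers above the median Cyp2b10 had 2 in Eif2s3y-high and 4 in Eif2s3y-low livers, Nqo1 5, Cyp3a11 5 and Cyp1a1 0 in Eif2s3y-low livers, and differing slopes were 0 on Nqo1 and 0 on Cyp3a11. With the split on Kdm5d 1 slope differed on Cyp2b10.

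Some correlations in Eif2s3y-high livers changed sign. With the most variable probe Sult2a1 had r = -0.0456 with Ugt2a1 and -0.0518 with Gstz1. With 5 components removed Cyp2b10 had -0.0712 with Sult2a1, and Nqo1 had 0.0777 with Gsto1, 0.249 with Sult1d1 and 0.168 with Sult1b1. In Eif2s3y-low livers r was then -0.00796 for Cyp3a11 with Gstm1 and 0.0164 for Nqo1 with Sult3a1. None of these was past an adjusted p of 0.05 by limma, and the cause was not tested. Of the values of single genes and pairs 1277 were counted as unchanged, 98 lost a call, 10 gained one and 5 moved. The 8 correlations above were counted as reversed. A value counted as unchanged need not have kept its direction or its side of a threshold. Shapes stayed uncalled for all 29 genes under each alternative run.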
